A study of Mus musculus with 4 samples.

Results

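Basal cells sit on the basement membrane of the tracheal epithelium, carry keratin 5 and the transcription factor p63, and act as its stem cells. At rest most of them hold little keratin 14, a filament partner of keratin 5 whose level is raised in basal cells after injury and in a minority of basal cells at rest. The cells described here are basal cells with little or no Krt14 RNA. A cell barcode was a member when it had at least 500 genes and, per 10000 unique molecular identifiers (UMIs, each standing for 1 captured RNA molecule), at least 10 of Krt5 plus Krt15 and under 10 of Krt14. It also had to carry under 10 of Krt13 (hillock cells), under 20 of Foxj1, Ccdc153, Dynlrb2 and Fam183b together (ciliated cells) and under 500 of Scgb1a1, Scgb3a1, Scgb3a2 and Bpifa1 together (secretory cells). Of 6778 barcodes with at least 500 genes, 2505 met the rule. The members were thus chosen by the measured levels of these 12 genes, whose values in the members are a description only.

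The study placed donor basal cells into injured mouse tracheas and sequenced the cells of 2 recipients, 1 mouse each, by 10X Chromium droplets. Both were wild type adults that received 2% polidocanol, a detergent that strips the airway lining, and 5 hours later 6000000 donor cells. The first mouse was of strain 129 X1/S1, received murine iBCs (basal cells derived in culture from embryonic stem cells) and was analysed 192 days after transplantation. The second was of strain C57BL/6, received primary BCs (basal cells taken from mice) and was analysed after 69 days. Pronase-digested cells positive for the live dye Calcein Blue were sorted into GFP+ cells, called donor-derived, and GFP- cells, called endogenous. That gave 4 libraries, 1 for each origin in each mouse. With 1 library per group no difference has a replicate check, and none was tested. Intervals below cover counting error only. Between the 2 mice, donor kind, time, strain and animal differ together and cannot be told apart. A trachea without injury or transplantation is mentioned in the labels and was not analysed here.

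The iBC recipient gave 714 members among 1890 endogenous barcodes (37.8%, exact binomial 95% interval 35.6 to 40.01%) and 387 among 1596 donor-derived barcodes (24.2%, 22.2 to 26.4%). The primary BC recipient gave 582 of 1418 endogenous (41.0%, 38.5 to 43.7%) and 822 of 1874 donor-derived barcodes (43.9%, 41.6 to 46.1%). Members held a median of 7790 to 11984 UMIs per cell, and their summed UMIs ranged from 3984794 to 9375358 per library. Over the libraries 9 members were called doublets and 4 had more than 20% mitochondrial UMIs. Only 2 barcodes occurred in more than 1 library, and neither was a member in both of its libraries. The GFP reporter, listed as EGFP_EXTRA, had a UMI in 0 of 714 and 1.55% of endogenous members, against 44.7% of iBC-derived and 98.8% of primary BC-derived members. In ciliated cells of the same 4 libraries the shares were 0.290%, 0.485%, 50.8% and 100%, so the reporter RNA was detected in only part of the cells of both types in the iBC-derived library. The 0 of 714 allows a share of up to 0.420%.

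Krt14 itself was not detected in many members, which at these depths does not show that they lacked it. No Krt14 UMI was seen in 76.6% of endogenous and 55.8% of iBC-derived members, nor in 81.1% and 57.2% of endogenous and primary BC-derived members of the other mouse. Among all basal cells, those passing every other part of the rule, the Krt14-low share was 88.5% (86.1 to 90.6%) in endogenous and 54.7% (50.9 to 58.4%) in iBC-derived cells. It was 94.0% (91.9 to 95.8%) in endogenous and 76.7% (74.0 to 79.2%) in primary BC-derived cells. In both mice the donor-derived basal cells thus held more cells above the limit. Just inside the limit, with 5 to under 10 Krt14 UMIs per 10000, lay 54, 76, 25 and 139 members in the order iBC recipient endogenous, iBC-derived, primary BC recipient endogenous, primary BC-derived; the same order is used for 4 values in a row throughout. Just outside it, from 10 to under 20, lay 50, 112, 15 and 124 basal cells. Cells lay close to the limit on both sides, so the members are a range of basal cells set by the level of 1 gene. With every cell thinned to 3000 UMIs before the rule was applied, the shares of barcodes were 37.3%, 23.8%, 39.8% and 41.6%. The secretory part of the rule weighed more than depth: with its limit at 100 in place of 500 the shares were 28.3%, 20.6%, 26.4% and 24.9%. In iBC-derived cells the Krt14 limit moved the share further, to 19.5% with a limit of 5 and 31.3% with one of 20.

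**Figure D1:**
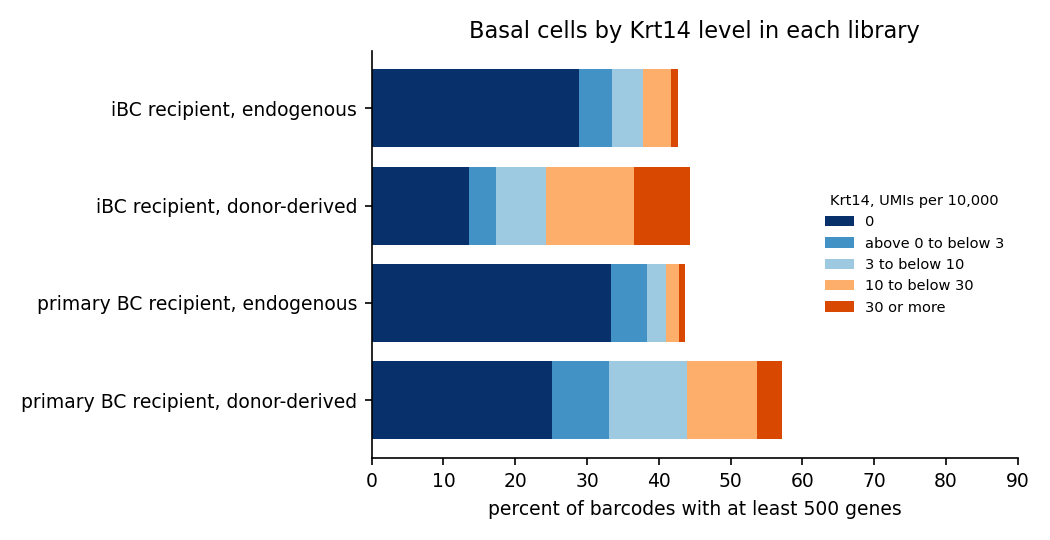
Basal cells of each library by Krt14 level (UMIs per 10000), as a percentage of barcodes with at least 500 genes; blue shades are the Krt14-low members and orange shades the Krt14-high basal cells. The orange part is widest in iBC-derived cells, where 321 of 708 basal cells were Krt14-high, and narrowest in endogenous cells of the primary BC recipient, with 37 of 619.

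The members carried basal markers that the rule did not use. Levels are given as CPM, a gene's UMIs scaled to 1000000 summed UMIs of a library's members. Trp63, which encodes p63, stood at 346, 225, 293 and 306 CPM and had a UMI in 83.9%, 74.9%, 91.2% and 86.7% of members, against 0.758 to 2.40% of ciliated cells. Dlk2, a Notch-family membrane protein gene, stood at 208, 138, 148 and 135 CPM. Dcn, which encodes the small matrix proteoglycan decorin, stood at 543, 557, 487 and 451 CPM. Of the 4 libraries, iBC-derived members were the lowest for Trp63 and the highest for Dcn. Dcn is a fibroblast marker as well, but the fibroblast genes Col1a1, Col1a2, Dpt and Postn had 0 UMIs in the members of all 4 libraries. Other fibroblast genes were detected below 20 CPM. These were Col3a1, Pdgfra and Mfap5 in endogenous members of the primary BC recipient and Lum in primary BC-derived members. Of 15 fibroblast and smooth muscle markers 2 to 6 were detected, with summed levels of 184 to 531 CPM, and 1 of them, Gsn, reached 20 CPM. All 18 genes of a wider basal list were detected in members of every library. Sums over markers of other cell types were 0 to 0.502 CPM for cartilage and 3.76 to 7.15 CPM for endothelium and glia. Ciliated markers, among them the ciliated genes of the rule, summed to 306 to 462 CPM against 4089 to 5802 CPM in cells outside the rule. Hillock markers, among them Krt13 of the rule, summed to 2642 to 4456 CPM, against 3045 to 5397 CPM outside the rule. The rule capped these genes in members, so both sums are a description only. Secretory markers, of which 4 are genes of the rule, summed to 17920, 9770, 25310 and 25480 CPM in members, against 150700 to 262500 CPM outside it, and the wider basal list to 10430, 3486, 10480 and 8365 CPM, against 1933 to 4046 CPM. The members thus held secretory RNA in every library. Immune markers summed to 283, 33.6, 339 and 556 CPM against 415 to 8858 CPM outside it. In each library 1 of these 15 markers reached 20 CPM. Outside iBC-derived members that marker was Lyz2, which is also counted below as an antimicrobial gene.

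Abi3bp and Apoe did not follow the other basal markers. Abi3bp (chromosome 16, 56477878 to 56690135, plus strand, GRCm38, a protein-coding gene for a secreted matrix-binding protein) stood at 1065 CPM in endogenous members of the iBC recipient, 56.5 CPM in iBC-derived members, 1317 CPM in endogenous members of the primary BC recipient and 1202 CPM in primary BC-derived members. Only iBC-derived members were low, 18.9-fold (16.5 to 21.6) below their endogenous neighbours, and 17.8% of them had a UMI against 95.5 to 98.5% elsewhere. Apoe (chromosome 7, 19696109 to 19699188, minus strand, a lipid transport apolipoprotein) stood at 3944, 452, 1516 and 118 CPM. It was lower in donor-derived members of both mice, 8.73-fold (8.32 to 9.16) in the iBC recipient and 12.8-fold (12.04 to 13.6) in the primary BC recipient. Its share of cells with a UMI was 93.1%, 45.5%, 90.6% and 28.0%, and 91.3%, 29.5%, 80.6% and 18.5% after thinning to 3000 UMIs. Krt14-high basal cells showed both patterns too: their log2 donor-derived over endogenous ratios were -4.07 and 0.20 for Abi3bp and -2.08 and -2.99 for Apoe, iBC recipient first.

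**Figure D2:**
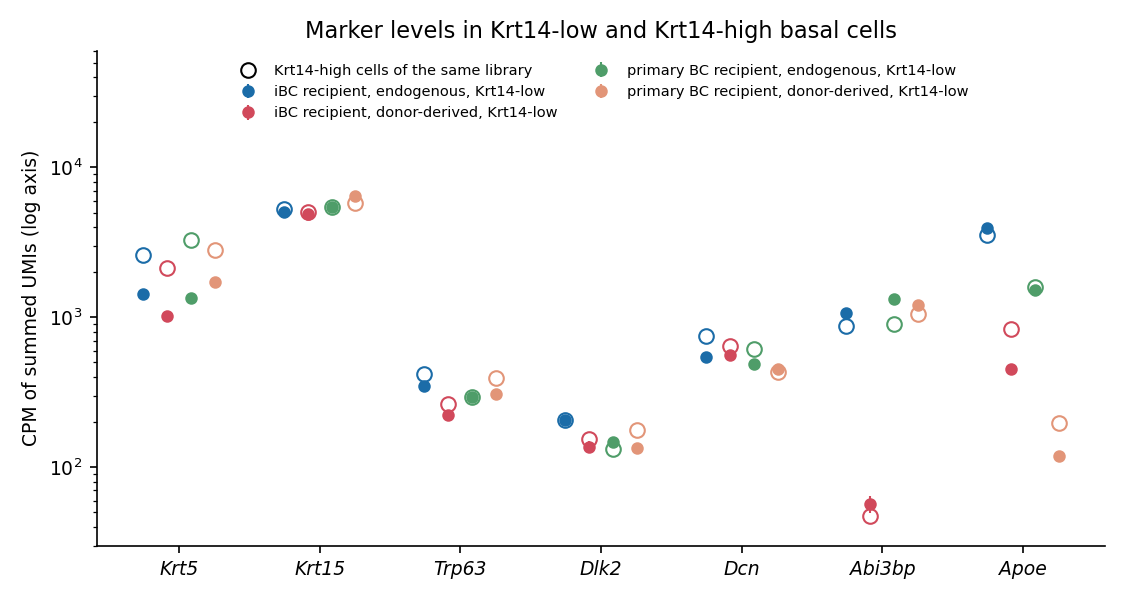
CPM on a log axis of the 7 marker genes in Krt14-low (filled, with exact Poisson 95% intervals, mostly within the point) and Krt14-high basal cells (open, no interval drawn) of each library. Abi3bp stands apart in iBC-derived cells at 56.5 CPM, and Apoe is lower in donor-derived than in endogenous cells of both mice.

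Few members carried RNA of genes that mark dividing cells. Mki67, a protein of dividing cells, had a UMI in 0.840%, 0.517%, 2.92% and 2.19% of members, and Top2a, the topoisomerase of dividing cells, in 0.980%, 1.03%, 3.44% and 1.58%. Ciliated cells, which do not divide, had Mki67 in 0.290 to 3.40% and Top2a in 0.870 to 8.25% over the libraries, at depths that were not matched. The part of free RNA in the members' shares was not tested. Against Krt14-high basal cells of the same library, genes of a list of DNA replication and mitosis had median log2 ratios of -0.63, -1.37, -1.20 and -0.60. In that list 0 of 10, 8 of 14, 11 of 17 and 4 of 17 measured genes were at least 2-fold lower in members, where 1.46%, 1.07%, 3.54% and 0.811% of all genes were. The largest of these counts, 11 of 17, rests on only 37 Krt14-high cells. In that library 1 gene of the list, Cenpf, was at least 2-fold higher in members, with a log2 ratio of 1.07, where 1.9% of all genes were. No gene of the list was in the other libraries.

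Members of the same trachea were first compared by origin. By the number of genes past 2-fold, the contrast in the iBC recipient was the larger. Ratios are log2((CPM + 5)/(CPM + 5)), which understates changes of low genes, over genes of at least 20 CPM in either sum. Of 6507 genes, 213 (3.27%) were at least 2-fold higher in iBC-derived members and 206 (3.17%) at least 2-fold lower, with a median log2 ratio over all genes of 0.11. In the primary BC recipient 15 of 6290 genes (0.238%) were at least 2-fold higher and 31 (0.493%) lower, with a median of 0.02. The counts of the primary BC recipient rest on more UMIs per sum, 7630442 and 9375358 against 5757851 and 3984794 in the iBC recipient. Whether the 2 mice differ in these counts was not tested.

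The genes with the highest ratios in iBC-derived members had varied roles. Foxq1, a forkhead transcription factor, stood at 14.2 CPM in endogenous and 250 CPM in iBC-derived members, 17.6-fold higher with a lower bound of 14 and an upper bound of 22.3, against 8.78 and 22.2 CPM in the primary BC recipient. Cdkn2a, which encodes the cell cycle inhibitor p16 and the p53 activator p19Arf, had 0 UMIs in endogenous members and 73.8 CPM in iBC-derived members. That is at least 142-fold higher against the limit of 0.521 CPM that 0 UMIs allow over the sum. Its UMIs were found in 46.5% of iBC-derived members, 12.9% of primary BC-derived members and 0.515% of endogenous members of the primary BC recipient. Ciliated cells of the 2 donor-derived libraries held it in 81.4% and 62.9% of cells, above the members' shares, and those of the endogenous libraries in 1.45% and 0.485%. Whether the members' UMIs came from free RNA was not tested. Cryab, a small heat shock protein gene, was at 0.868 and 121 CPM, and Hspb1, another small heat shock protein gene, ran the opposite way at 517 and 11.5 CPM. The other 14 genes of the heat shock list that were measured differed by less than 2-fold.

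Sftpc, which encodes surfactant protein C of alveolar type 2 cells, was found in iBC-derived members at 227 CPM and in endogenous members of that mouse as 1 UMI, a ratio of 1306 with a counting interval of 234 to 51650. It was carried by 23.3% of iBC-derived members, against 12.1% of ciliated cells of that library and 0.122 to 0.344% of members elsewhere. Ciliated cells of the other 3 libraries held it in 4.35%, 57.3% and 49.7%, in the order above. Its level was 295 CPM in the 274 iBC-derived members with a secretory sum below 20 per 10000 and 5.74 CPM in the 59 members from 100 to below 500. Of the 7 measured genes in a list of distal lung markers, Sftpc and Hopx were at least 2-fold higher and Cd36, Sftpd and Sftpa1 at least 2-fold lower, so the list had members in both directions, with a median log2 ratio of 0.87. For all genes the shares were 3.27% higher and 3.17% lower. Filip1l and Mylk, which act on the actin cytoskeleton, were at 2.08 and 99.4 CPM and at 4.69 and 85.6 CPM. Clic3, Cpe, Selenom, Rapgef5, Hjurp and Plet1 completed the 12 highest ratios, with log2 ratios from 2.93 to 3.22.

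Genes that were low in iBC-derived members included detoxifying enzymes that tracheal basal and secretory cells hold. Sult1d1, a sulfotransferase gene, stood at 1475 and 56.2 CPM, 26.2-fold lower (22.98 to 30.1), and at 1774 and 1657 CPM in the primary BC recipient. Fmo6, a flavin monooxygenase gene, stood at 201 and 7.78 CPM, and Ugt2b34, a glucuronosyltransferase gene, at 102 and 3.76 CPM. Of 17 measured genes in a list of xenobiotic and aldehyde metabolism, 6 were at least 2-fold lower (among them Cyp2a5, Sult1d1, Fmo6, Ugt2b34 and Cyp2f2) and 0 higher, with a median log2 ratio of -0.58, where 3.17% of all genes were lower. Secretory markers were lower too: 8 of 11 measured were at least 2-fold lower and 2, Scgb1a1 and Muc5b, higher, with a median of -1.16 and a sum of 17920 against 9770 CPM. Of these genes Scgb1a1, Bpifa1, Scgb3a1 and Scgb3a2 are part of the rule, so the counts and the sum are a description only. Of 9 antimicrobial and acute phase genes 4 were lower (Reg3g, Lyz2, C3 and Wfdc2) and 0 higher. The part of secretory RNA in these differences was not tested. Cyp2a5 may share reads with a near-identical paralog, so its value is uncertain. Lgr6, an R-spondin receptor gene, stood at 63.0 and 1.25 CPM. Ly6k, Ccl20 (a chemokine), Slc16a11 (a monocarboxylate transporter) and Cyba (a subunit of the NADPH oxidase) were 24.9-fold to 86.5-fold lower. Over the libraries Ly6k stood at 280, 7.53, 7.86 and 10.1 CPM, so only endogenous members of the iBC recipient were high. Levels of Ccl20 were 332, 13.3, 75.5 and 31.8 CPM, highest in the same library. Ccl20 was 1 of 4 genes at least 2-fold lower among 8 measured chemokine and cytokine genes, with Il13ra1, Csf1 and Cxcl10, and 0 were higher. Secreted matrix genes had 5 of 14 measured members lower (Abi3bp, Fbln1, Igfbp5, Igfbp3 and Igfbp7) and 1, Ecm1, higher. Over all genes the shares were 3.17% lower and 3.27% higher.

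Other basal genes were lower in part. Of the 18 genes of the basal list, 6 were at least 2-fold lower in iBC-derived members (Abi3bp, Apoe, Krt17, F3, Aqp3 and Dapl1) and 0 higher, with a median log2 ratio of -0.68, where 3.17% of all genes were lower. Aqp3, a water and glycerol channel of basal cells, was at 699, 186, 1731 and 1454 CPM. F3, the tissue factor of coagulation, was at 749, 101, 1619 and 1331 CPM. Of 19 measured genes of hemidesmosomes and basement membrane, which anchor basal cells, Col7a1 and Col17a1 were at least 2-fold lower and 0 higher, with a median of 0.07. In the primary BC recipient 1 gene of the basal list, Apoe, was at least 2-fold lower, where 0.493% of all genes were, and the median was -0.11.

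Transcription factors that mark regions of the airway split in iBC-derived members. Of 24 measured, 7 were at least 2-fold lower, among them Isl1, Irx1, Tbx1, Irx2, Irx5 and Irx3. Irx1 stood at 40.1 and 0.753 CPM, Tbx1 at 36.7 and 0.502 CPM and Isl1 at 52.3 and 1.76 CPM, and in the primary BC recipient both origins were between 33.3 and 56.2 CPM for these 3 genes. Another 5 were at least 2-fold higher: Foxq1, Hopx, Foxp1, Gata6 and Pitx1. Over all genes 3.17% were lower and 3.27% higher. Nkx2-1, which specifies the lung and trachea, stood at 115, 92.8, 153 and 151 CPM, and Sox2, which marks the conducting airways, at 321, 185, 330 and 340 CPM. In the primary BC recipient 1 of 23 measured factors, Pitx1, was at least 2-fold higher and none lower, where 0.238% and 0.493% of all genes were. Pitx1 was higher in donor-derived members of both mice, at 14.2 and 39.1 CPM and at 12.1 and 43.8 CPM.

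Signalling genes differed in both directions in iBC-derived members, where 3.27% of all genes were higher and 3.17% lower. Among 20 measured genes of the BMP and TGF-beta pathways, 5 were at least 2-fold higher (Id3, Id1, Tgfbi, Bmp1 and Tgfb2) and 2 lower (Id4 and Tgfbr3), with a median log2 ratio of 0.26. Id1, a target of BMP signals, stood at 89.1 and 329 CPM, and Id4 of the same family at 45.9 and 4.77 CPM. Of 8 measured genes of the EGF receptor family, 3 were at least 2-fold higher: the ligands Areg and Hbegf and the feedback inhibitor Errfi1. Areg stood at 1.56 and 37.1 CPM. The Wnt list had 0 higher and 2 lower of 14 (Lgr6 and Wnt10a), the list of FGF and hedgehog genes 0 higher and 1 lower of 8 (Fgfbp1), and the Notch list 1 higher (Jag1) and 0 lower of 10. None of the genes measured in these 5 lists differed 2-fold in the primary BC recipient. There only 0.238% of all genes were at least 2-fold higher and 0.493% lower, so a count of none is near those shares.

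MHC class II molecules show peptides to CD4+ T cells, and Cd74 encodes their chaperone. All 6 measured class II genes were at least 2-fold higher in iBC-derived than in endogenous members, with a median log2 ratio of 2.00. For all genes of that comparison the shares were 3.27% higher and 3.17% lower. H2-Eb1 stood at 72.1, 538, 16.8 and 4.05 CPM and Cd74 at 380, 1724, 60.9 and 13.97 CPM. In the primary BC recipient only Cd74 reached 20 CPM, and its log2 ratio was -1.80. There it was seen in few endogenous members, 4.3% at 3000 UMIs per cell, and class II genes summed to 2710 CPM in endogenous and 112 CPM in donor-derived cells outside the rule. The part of those cells in this ratio was not tested. Cd74 had a UMI in 37.7%, 82.4%, 12.5% and 4.87% of members and in 29.6%, 89.0%, 7.28% and 2.99% of ciliated cells, so ciliated cells followed the same order of libraries. Of the immune markers, Ptprc, the pan-leukocyte CD45, was at 0 to 1.18 CPM in members. MHC class I genes had a median of 0.67 over 14 measured genes, of which 0 were at least 2-fold higher and 1, H2-Q6, lower. B2m, their shared light chain, stood at 714, 1432, 331 and 264 CPM. Genes of the H2-Q family are near-identical copies, and reads can be split between them.

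**Figure D3:**
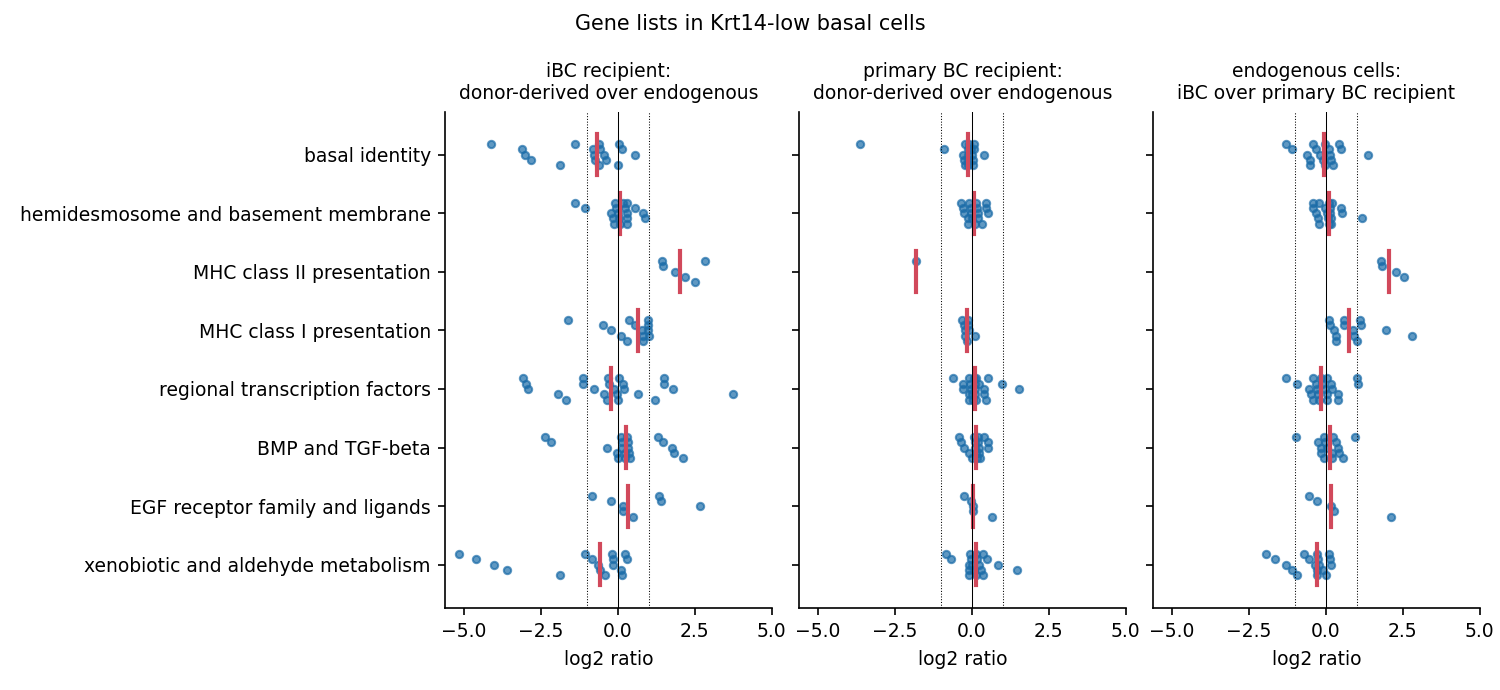
log2 ratios of the measured members of 8 gene lists (points, 1 per gene; red bars are medians) in Krt14-low cells for the 3 comparisons between libraries; dotted lines mark 2-fold. Class II genes lie to the right in the left and right panels, with medians of 2.00 and 2.05, while most genes of the middle panel lie within 2-fold.

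The donor-derived members of both mice shared a small group of genes. The 2 comparisons use no library in common. Over 5897 genes measured in both, 22 were at least 2-fold lower in donor-derived members of both mice, and 5 were higher (the reporter, Krt14, Ahnak2, Pitx1 and Calml3). The reporter was sorted on, and Krt14 and, among the lower genes, Scgb3a1 are genes of the rule, so these 3 are no findings. The log2 ratio of Calml3 in the primary BC recipient was 0.25 and -0.24 with secretory limits of 100 and 20, that of Ahnak2 there was 0.71 with a limit of 20, and that of Ccl20, among the lower genes, was -0.86 with a Krt14 limit of 5. Cd36, a fatty acid and lipoprotein receptor gene on chromosome 5 (17781690 to 17888801, minus strand), stood at 76.8 and 0.251 CPM, and at 61.5 and 2.77 CPM. The 0.251 CPM is 1 UMI, a ratio of 306 with a counting interval of 54.6 to 12110; in the primary BC recipient it was 22.2-fold lower (14.9 to 34.3). Mme, the membrane protease neprilysin, stood at 72.6 and 2.26 CPM, and at 85.4 and 14.7 CPM. Bmx, a tyrosine kinase gene, stood at 57.7 and 3.01 CPM, and at 40.4 and 3.52 CPM. Cldn10, a tight junction gene, stood at 40.8 and 1.004 CPM, and at 52.3 and 7.04 CPM. Cdkn1c, a cell cycle inhibitor gene with 1 expressed parental allele, stood at 54.4 and 1.51 CPM, and at 44.8 and 17.8 CPM. In each of these genes both endogenous libraries lay above both donor-derived ones. Cd36, Mme, Bmx and Cldn10 were also among the 12 named genes with the highest mean ratios of members over Krt14-high basal cells. For Cdkn1c those log2 ratios were 1.27 and 1.11 in the endogenous libraries. Donor-derived members had a Krt14 UMI more often, as given above. The part of the Krt14 level in the differences of Mme, Bmx, Cldn10 and Cdkn1c was not tested.

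**Figure D4:**
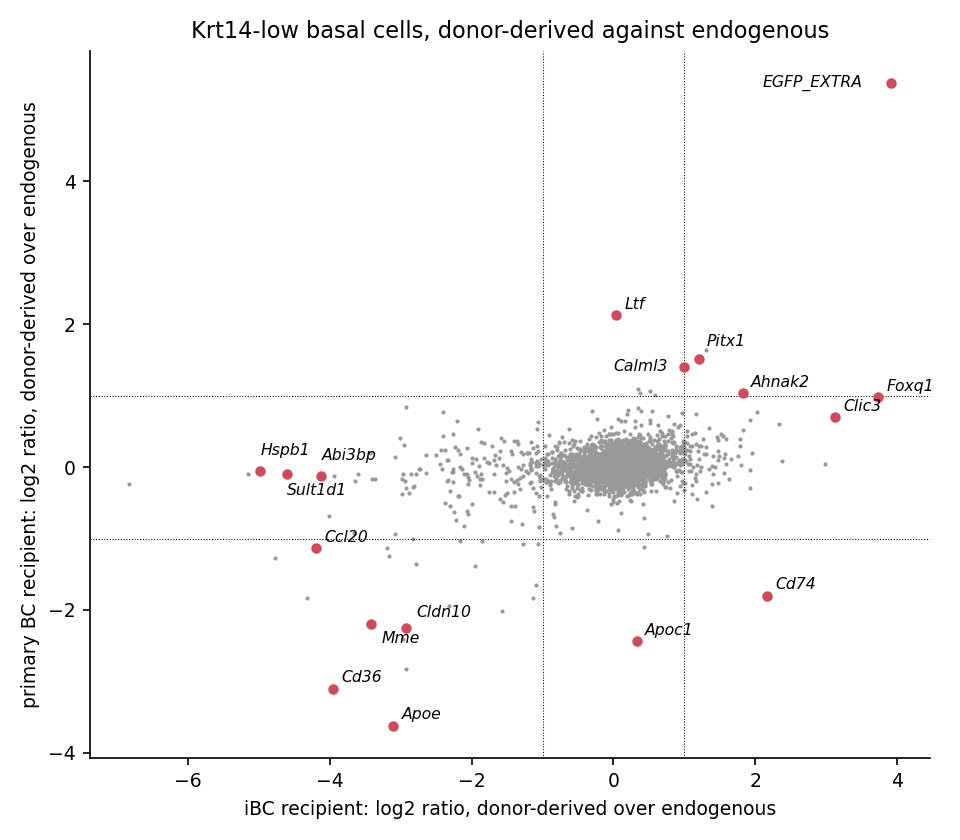
log2 ratio of donor-derived over endogenous Krt14-low cells in the iBC recipient (x) and in the primary BC recipient (y), 1 point per gene measured in both (5897 genes); dotted lines mark 2-fold. The spread is wide along x and narrow along y, Apoe and Cd36 lie at the lower left, and Cd74 is the 1 gene at least 2-fold higher on x and lower on y.

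In the primary BC recipient few other genes differed between origins. Apoc1, an apolipoprotein gene next to Apoe, stood at 217 CPM in endogenous and 35.8 CPM in donor-derived members, against 322 and 406 CPM in the iBC recipient. Trf, the iron carrier transferrin, stood at 373 and 88.7 CPM, and Ifi27l2a, an interferon-stimulated gene, at 436 and 119 CPM. Nupr1, a stress-response gene, was 10.7-fold higher (8.86 to 12.97), at 15.6 and 166 CPM, and was found in a like share of members, 10.3% and 9.98%, against 94.2% and 97.6% of ciliated cells. Its variance over mean between primary BC-derived members, at 3000 UMIs per cell, was 80.6, the highest of 4179 genes, where the median gene had 1.03. Ltf, the secreted antimicrobial lactoferrin, was at 152 and 682 CPM, in 27.7% and 37.0% of members and 49.0% and 52.7% of ciliated cells. Secretory markers summed to 25310 and 25480 CPM in members of these libraries and 176500 and 156600 CPM in cells outside the rule. With a secretory limit of 100 in place of 500, the log2 ratio of Nupr1 was 0.86, that of Calml3 0.25 and that of Lgals3 0.81. Their part in these ratios was not tested. Tppp3, a microtubule-binding protein gene on the ciliated marker list, stood at 64.7 and 145 CPM, while that list summed to 360 and 462 CPM. Muc16, a membrane mucin, stood at 38.0 and 85.4 CPM, and Cbr2, a carbonyl reductase of airway cells, at 11812 and 5569 CPM. Of 11 measured genes of apolipoproteins and lipid uptake, Apoe, Cd36 and Apoc1 were at least 2-fold lower and 0 higher, where 0.493% of all genes were lower. In the iBC recipient that list had 12 measured genes, with Apoe and Cd36 lower and Clu higher, at 11.5 and 121 CPM. There 3.17% of all genes were lower and 3.27% higher.

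Endogenous members of the 2 mice also differed, by at least 2-fold in 71 of 6337 genes toward the iBC recipient (1.12%) and 89 toward the primary BC recipient (1.4%). Ly6d, a surface protein of basal and squamous cells, stood at 510 and 42.5 CPM, 12.02-fold higher in the iBC recipient (10.7 to 13.5). Ctgf, a matrix-associated growth factor, stood at 348 and 53.3 CPM, and Egr1, an immediate early transcription factor, at 155 and 29.0 CPM. All 4 measured class II genes and 5 of 14 class I genes were at least 2-fold higher in the iBC recipient, and 4 of 15 heat shock genes were (Hspa1a, Hspa1b, Dnaja1 and Hsph1). Keratin 4 (Krt4), of luminal and hillock cells, stood at 32.3 and 117 CPM and Adh7, an alcohol dehydrogenase, at 457 and 1441 CPM, both lower in the iBC recipient. Of 14 measured cell cycle genes, Mcm6 and Pcna were at least 2-fold lower there and 0 higher, with a median of -0.66. For some genes both libraries of a mouse had similar levels. Rpl29 stood at 97.1 and 111 CPM in the iBC recipient and at 1245 and 1152 CPM in the primary BC recipient. The pseudogene Ftl1-ps1 stood at 1310 and 1119 CPM against 11.4 and 8.75 CPM, and Apobec3 at 20.8 and 28.4 CPM against 182 and 167 CPM. Reads of Rpl29 and Ftl1-ps1 can be shared with near-identical copies, so their values are uncertain.

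Basal cells with more Krt14 also differed in other genes. From no Krt14 UMI to 10 to under 30 per 10000, Krt5, a gene of the rule, went from 1231 to 2591 CPM, 885 to 1779 CPM, 1196 to 2743 CPM and 1428 to 2516 CPM in the 4 libraries. Col17a1, a hemidesmosome collagen, went from 106 to 247, 44.2 to 101, 90.5 to 263 and 124 to 260 CPM. Cyp2f2, a cytochrome P450 of club cells, went down from 7295 to 3952, 4085 to 2238, 8368 to 4714 and 8935 to 5219 CPM, and Tst and Aldh1a7 went down as well in all 4. Trp63 changed less, from 336 to 420, 206 to 296, 283 to 314 and 264 to 403 CPM. The bins of 30 or more hold 18 and 11 cells in the 2 endogenous libraries and are not used here. Among cells with no Krt14 UMI, Apoe was at 4095 and 416 CPM and at 1496 and 89.9 CPM, and Cd36 at 96.3 and 0.503 CPM and at 69.1 and 4.19 CPM. In both mice these 2 genes were thus lower in donor-derived cells in which Krt14 was not detected.

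Against Krt14-high basal cells, 3 of 5534 genes (0.0542%) were at least 2-fold higher in members of all 4 libraries, and 5 (0.0904%) lower. The higher genes were Ltf, Gabrp (a GABA receptor subunit) and Prr15l. Gabrp stood at 38.2 against 15.7 CPM, 78.0 against 30.1, 50.7 against 18.0 and 78.8 against 34.4, members first. The lower genes were Krt14 itself, Krt17, Wnt10a, Sncg and Bok. Krt17, an injury-associated keratin gene on the same chromosome as Krt14, stood at 415 against 1273 CPM, 47.2 against 251, 636 against 2477 and 845 against 1768. Wnt10a, a Wnt ligand, stood at 71.9 against 193 CPM, 16.6 against 91.7, 31.7 against 137 and 41.6 against 126. Since the split used Krt14 of the same cells, these values are a description. No gene stayed among the higher ones with a Krt14 limit of 5 or a secretory limit of 100. Ltf had UMIs in 10.3 to 37.0% of members, below its 21.6 to 52.7% in ciliated cells, and in the iBC recipient's endogenous basal cells it stood at 127, 73.3, 1065 and 29.3 CPM along the first 4 Krt14 bins, with no steady course. Among 18, 14, 18 and 19 measured genes of xenobiotic metabolism 5, 0, 8 and 5 were at least 2-fold higher in members, where 1.74%, 0.337%, 1.9% and 0.474% of all genes were. In the first library 1 gene, Fmo1, was lower, at -1.05. Median log2 ratios of this list were 0.74, 0.46, 0.96 and 0.76. Secretory markers were higher in members as well, by at least 2-fold in 5 of 10, 3 of 8, 7 of 12 and 5 of 12 measured genes, with 0, 1, 1 and 1 lower and medians of 0.95, 0.68, 1.05 and 0.78. They summed to 17920 against 12370 CPM, 9770 against 4523, 25310 against 10310 and 25480 against 12410, members first, and their part in the other differences was not tested. The list holds Scgb1a1, Scgb3a1, Scgb3a2 and Bpifa1 of the rule, so its counts, medians and sums are a description only. Other lists were lower in part. Of secreted matrix genes 7 of 17, 1 of 14, 8 of 16 and 4 of 15 were at least 2-fold lower and 0 higher. Of hillock markers, with Krt13 of the rule, 3 of 7, 0 of 9, 10 of 13 and 7 of 12 were lower. There 1, 2, 0 and 1 were higher. Of injury-associated basal genes, with Krt14, 6 of 14, 4 of 15, 7 of 16 and 6 of 17 were lower. There 0, 0, 1 and 0 were higher. Of all genes 1.46%, 1.07%, 3.54% and 0.811% were lower.

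**Figure D5:**
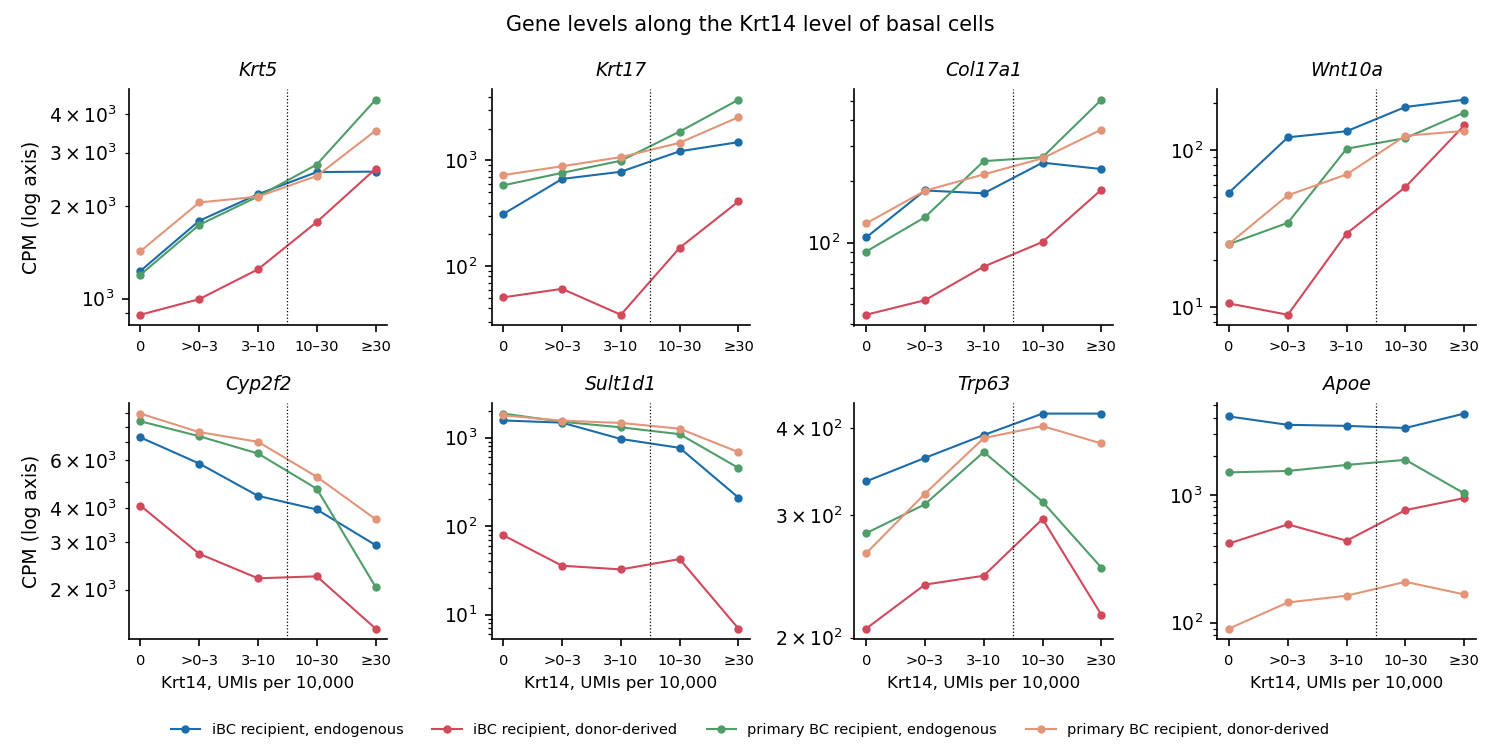
CPM on a log axis of 8 genes in basal cells binned by Krt14 level (x, UMIs per 10000), 1 line per library; the dotted line is the limit of 10 that separates Krt14-low from Krt14-high cells, and the last bin holds 18 and 11 cells in the endogenous libraries. Krt5, Krt17, Col17a1 and Wnt10a are higher and Cyp2f2 and Sult1d1 lower toward the right, while Apoe is lower in donor-derived than in endogenous cells of the same mouse at each level.

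Members also varied in secretory RNA. A secretory sum below 20 per 10000 was seen in 15.4%, 70.8%, 21.5% and 14.96% of members, and one from 100 to below 500 in 25.2%, 15.2%, 35.6% and 43.2%. Scgb1a1 had a UMI in 99.9%, 100%, 97.4% and 90.02% of members and in 94.6 to 99.7% of ciliated cells. Shares this close to 100% cannot tell free RNA from the cells' own. Between members of the lowest and the highest secretory bin, Trp63 went from 438 to 184, 254 to 116, 345 to 207 and 375 to 218 CPM, and Dlk2 from 286 to 71.6, 173 to 37.3, 203 to 73.3 and 190 to 70.5 CPM. Krt8, a keratin of luminal cells, went up from 300 to 712, 352 to 1379, 322 to 507 and 418 to 517 CPM. The secretory sum is part of the rule, so these bins describe the range it admits. In each bin Abi3bp was lower in iBC-derived than in endogenous members, at 28.2 against 1033 CPM, 141 against 1282 and 98.9 against 636. The genes that varied most between members, at 3000 UMIs per cell, were Ltf, Bpifa1, Reg3g and Lyz2 in both endogenous libraries, Scgb1a1 in iBC-derived and Nupr1 in primary BC-derived cells.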

How the data were processed

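UMI counts per gene and barcode were used as deposited, as 1 matrix for each of 4 libraries; per the submitters' processing notes the tools named were Cell Ranger, STARsolo and Seurat on the GRCm38 build, with versions and roles not given in the sources used here. No strand or multi-mapping setting was found in the labels or files, so antisense and near-identical genes may share reads. The deposited tables list 30907 features, of which 30766 matched a reference table of gene names by identifier; positions were read from GENCODE vM21. The authors' filters on barcodes are not given in the sources used here.

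Members were selected by the rule in the text and their counts summed per library. Sums were scaled to CPM, and ratios used a pseudocount of 5 CPM over genes of at least 20 CPM in either sum. Fold changes carry exact conditional Poisson 95% intervals, shares exact binomial (Clopper-Pearson) ones; 0 UMIs allow up to 3 counts. With 1 library per group no test was run. Python 3.11.15, scanpy 1.11.5 (Scrublet for doublets, which were kept), scipy 1.17.1 and matplotlib 3.10.9 were used; edgeR and DESeq2 gave scaling factors for alternatives only. The ratios and intervals were tested on simulated data.

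Named genes were the up to 12 highest and 12 lowest ratios per comparison, and the text describes only part of them. They needed 50 CPM and 50 UMIs in a sum, a 2-fold difference and a nearer interval bound of 1.5-fold; against Krt14-high cells the order was by mean log2 ratio with 1 direction in all 4 libraries. Left out were the rule's genes, sex-linked genes, reporters, unnamed gene models, and genes under 10% of their level in cells outside the rule. Markers, members at the extremes of gene lists and members of lists of up to 6 measured genes were named too. Others (Id1, B2m, Aqp3, Nkx2-1, Sox2, Gabrp, Prr15l, and genes shared by both mice) were chosen after their values were seen. The members and gene lists were chosen with earlier results of these data known.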

Additional observations from a re-analysis of the deposited data

Results flagged for a closer look

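Cd74, the class II chaperone, was 2.17 higher on the log2 scale in donor-derived than in endogenous members of the iBC recipient, and -1.80 was its log2 ratio in the primary BC recipient. It drew attention because the same contrast ran in opposite directions in the 2 mice. Of endogenous members of the primary BC recipient 4.3% had a UMI at 3000 UMIs per cell, and class II genes outside the rule summed to 2710 CPM in endogenous and 112 CPM in donor-derived cells. The difference was not tested, since each mouse gave 1 library per origin.

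A second reporter feature in the deposited tables, named for mCherry, enters no comparison above. It had 47 UMIs in 40 of 387 iBC-derived members (10.3%, 11.8 CPM) and 0 UMIs in members of the other 3 libraries, where 0 allows up to 0.521, 0.393 and 0.320 CPM. Over all barcodes the iBC-derived library held 214 of its UMIs and the other 3 held 0.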

How the results depend on the processing

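No paired analysis was possible because each group has 1 library, so the groups share fewer than 2 replicate numbers; for the same reason no replicate was left out. The secretory limit of 20 was chosen after seeing the data.

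Shares of members, as percentages in the order iBC recipient endogenous, iBC-derived, primary BC recipient endogenous, primary BC-derived, were 28.3, 20.6, 26.4 and 24.9 with a secretory limit of 100, and 5.82, 17.2, 8.82 and 6.56 with one of 20, and with a Krt14 limit of 5 they were 34.9, 19.5, 39.3 and 36.4; under all 3 the order of libraries changed. With a Krt14 limit of 20 they were 40.4, 31.3, 42.1 and 50.5. With Krt5 plus Krt15 of at least 20 iBC-derived members were 20.1.

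Counts of genes at least 2-fold higher and lower in the iBC recipient were 118 and 104 from 50 CPM up, and 378 lower with no filter. In the primary BC recipient they were 17 lower from 50 CPM up, 23 and 54 with no filter, and 38 and 57 with a secretory limit of 20. Between endogenous members they were 37 and 46, 114 and 134, and 116 and 240 under these settings. Between Krt14-low and Krt14-high cells the genes higher in all 4 libraries were 5 with a pseudocount of 1 and with TMM factors, 1 from 50 CPM up, and 0 with a Krt14 limit of 5 or a secretory limit of 100 or 20. The lower ones were 3 from 50 CPM up and with every cell weighted equally, 10 with no filter and 8 with a secretory limit of 100. The changes with the CPM filter follow from testing fewer or more genes; the cause of the others was not tested.

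In the comparisons between libraries 70 ratios of named genes and markers were past 2-fold, a gene counting once per comparison. Of these ratios 7 were under 2-fold in at least 1 alternative, all in the primary BC recipient. Of the 7, 1, that of Calml3, changed direction, to -0.24 with a secretory limit of 20. No such check was made of single genes named against Krt14-high cells. Few cells and UMIs limit low genes most in the iBC-derived and the small Krt14-high sums.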
